A study of Homo sapiens with 4 samples.

Results

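Small nucleolar RNAs (snoRNAs) guide chemical modification of ribosomal and other RNAs, and in human cells most are cut from introns. Some of the genes that carry them make no protein, so that the spliced exons are left as a long noncoding RNA. The 10 genes described here are such noncoding snoRNA hosts: GAS5 (ENSG00000234741), SNHG1 (ENSG00000255717), SNHG5 (ENSG00000203875), SNHG6 (ENSG00000245910), SNHG7 (ENSG00000233016), SNHG8 (ENSG00000269893), SNHG12 (ENSG00000197989), SNHG15 (ENSG00000232956), ZFAS1 (ENSG00000177410) and EPB41L4A-AS1 (ENSG00000224032). They were taken by identifier from a list drawn up with earlier results of these data known, and all 10 were found among the 60676 identifiers (IDs) of each library. Whether these genes differed as a set from other genes was not tested.

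The libraries came from MiaPaCa cells, an established pancreatic cancer line, that had been transfected to express SRP9 variant 1 or variant 2. SRP9 belongs to the signal recognition particle, whose RNA it contacts at the Alu domain. Both constructs carried a nuclear localisation signal (NLS) and a 3xFLAG tag in a vector with the fluorescent reporter acGFP1, and the cells were selected with Geneticin and sorted on acGFP1. The 4 groups of 1 library each were RNA co-precipitated with variant 1 (RIP variant 1), RNA co-precipitated with variant 2 (RIP variant 2), and the whole-cell RNA of those experiments (input variant 1 and input variant 2). All 4 carry a transfected nuclear SRP9, and RNA precipitated from cells without one was not analysed here. RIP variant 1 totalled 3921361 counts and RIP variant 2 totalled 5211354, and their inputs totalled 50454080 and 58815384.

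The exonic RNA of several of these hosts is known to leave the nucleus, to be engaged by ribosomes over short reading frames and to be degraded by nonsense-mediated decay, so that it accumulates when translation is slowed. Many snoRNA hosts also begin, like ribosomal protein genes, with a cytosine followed by a run of pyrimidines, the TOP start that ties translation to growth signals. The snoRNAs themselves are of 2 families, box C/D, which guide ribose methylation, and box H/ACA, which guide pseudouridylation. RefSeq lists all 10 hosts as long noncoding RNA genes, and by position 34 snoRNA genes lie inside these 10 hosts, 25 named as box C/D and 9 as box H/ACA. GAS5 holds 11, SNHG1 holds 8, SNHG12 holds 4, ZFAS1 holds 3, SNHG5 and SNHG7 hold 2 each, and SNHG6, SNHG8, SNHG15 and EPB41L4A-AS1 hold 1 each.

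The starts of 8 hosts are shown because a TOP start, if present, would lie there, and 4 of the 8 have a C followed by a run of pyrimidines. Each line has the 20 bases before and the 30 bases from the RefSeq transcription start on (RefSeq, GRCh38.p14), 5′ to 3′ on the strand of the gene, and capitals mark the unbroken run of C or T that begins at the first transcribed base. GAS5 lies at chr1:173869016-173869065 (minus strand), SNHG1 at chr11:62855856-62855905 (minus), SNHG5 at chr6:85678704-85678753 (minus) and SNHG7 at chr9:136728155-136728204 (minus). SNHG8 lies at chr4:118278742-118278791 (plus), SNHG12 at chr1:28581844-28581893 (minus), ZFAS1 at chr20:49278622-49278671 (plus) and EPB41L4A-AS1 at chr5:112160506-112160555 (plus).
GAS5: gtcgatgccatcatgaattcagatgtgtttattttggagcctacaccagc
SNHG1: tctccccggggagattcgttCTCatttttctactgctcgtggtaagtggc
SNHG5: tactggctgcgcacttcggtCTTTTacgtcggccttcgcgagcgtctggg
SNHG7: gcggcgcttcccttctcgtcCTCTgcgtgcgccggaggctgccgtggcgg
SNHG8: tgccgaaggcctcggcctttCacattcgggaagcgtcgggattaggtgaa
SNHG12: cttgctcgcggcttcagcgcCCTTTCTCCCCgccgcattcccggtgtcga
ZFAS1: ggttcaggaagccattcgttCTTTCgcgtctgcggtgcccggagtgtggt
EPB41L4A-AS1: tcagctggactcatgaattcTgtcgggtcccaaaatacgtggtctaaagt

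A C at the first base with a pyrimidine run of at least 4 was present in 4 of the 8 (SNHG5, SNHG7, SNHG12 and ZFAS1), and in 5.45% of the 35116 RefSeq start windows searched the same way on the strand of the gene. Host starts on chromosome 8, where SNHG6 lies, were left out, while the 35116 windows were not limited by chromosome. SNHG15, on chromosome 7, had no start window under its symbol. The SNHG1 run was 3 bases long, with CTC followed by an A and further pyrimidines. RefSeq gives 1 start per gene here, and for GAS5 it is the outermost of many transcripts. For SNHG1, SNHG5, SNHG7, SNHG8 and EPB41L4A-AS1 the printed start is likewise the outer end of the gene. For any host, a start used in these cells may lie elsewhere. The windows were not chosen on the counts, and nothing follows from them about binding by SRP9.

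The question was which RNAs the nuclear SRP9 variants bind, read as RIP over input. The hosts divided into 6 that were lower in RIP and 4 that did not pass the test. SNHG6, SNHG1, SNHG12, SNHG7, GAS5 and SNHG8 fell, with log2 fold changes of -2.23 (SNHG8) to -3.78 (SNHG6), and each was lower in RIP than in input with both constructs. SNHG5, ZFAS1, SNHG15 and EPB41L4A-AS1 had log2 fold changes of -0.13 to -0.81. With TMM scaling 0 hosts were called higher, with 0 higher at an unadjusted p under 0.05, and 0 were called higher by DESeq2 or limma-voom. This count depends on scaling, since SNHG5 was called higher on library totals (edgeR adjusted p = 0.0187). It was also called higher when only IDs with 50 counts or more in each input were fitted (edgeR adjusted p = 0.0285). The test was edgeR's quasi-likelihood test on all 41622 IDs that passed the filter on low counts, with TMM scaling and a Benjamini-Hochberg adjusted p under 0.05. The constructs served as the 2 libraries of each fraction, so the p-values rest on the spread of these libraries alone, which are different constructs and not replicates.

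A lower value in RIP was common among IDs with counts in both inputs. Of all IDs tested, 15.8% were called lower and 49.5% higher, and of the 20594 called higher 1282 had 50 counts or more in each input. All 10 hosts had 50 counts or more in each input, and the 15436 IDs of which this is true are called well covered below. Among the well-covered IDs, 42.2% were called lower and 8.31% higher, and the median log2 fold change was -1.15, against a median of -2.46 for the 10 hosts. This contrast is not matched for input level, with which RIP over input fell, and no share of calls was computed for IDs of the hosts' level. Beside IDs of a similar input level, 3 hosts lay above the quartiles of the ratio, 4 inside and 3 below with variant 1. With variant 2 it was 2 above, 4 inside and 4 below. Library totals as the scaling, without TMM, raised each host's log2 fold change by 1.17 to 1.18 and the median of the well-covered IDs to 0.03, where 21.1% were called lower and 19.8% higher. The size of every log2 fold change of RIP over input below therefore depends on scaling. The difference of a host from the median of the well-covered IDs does not.

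**Figure D1:**
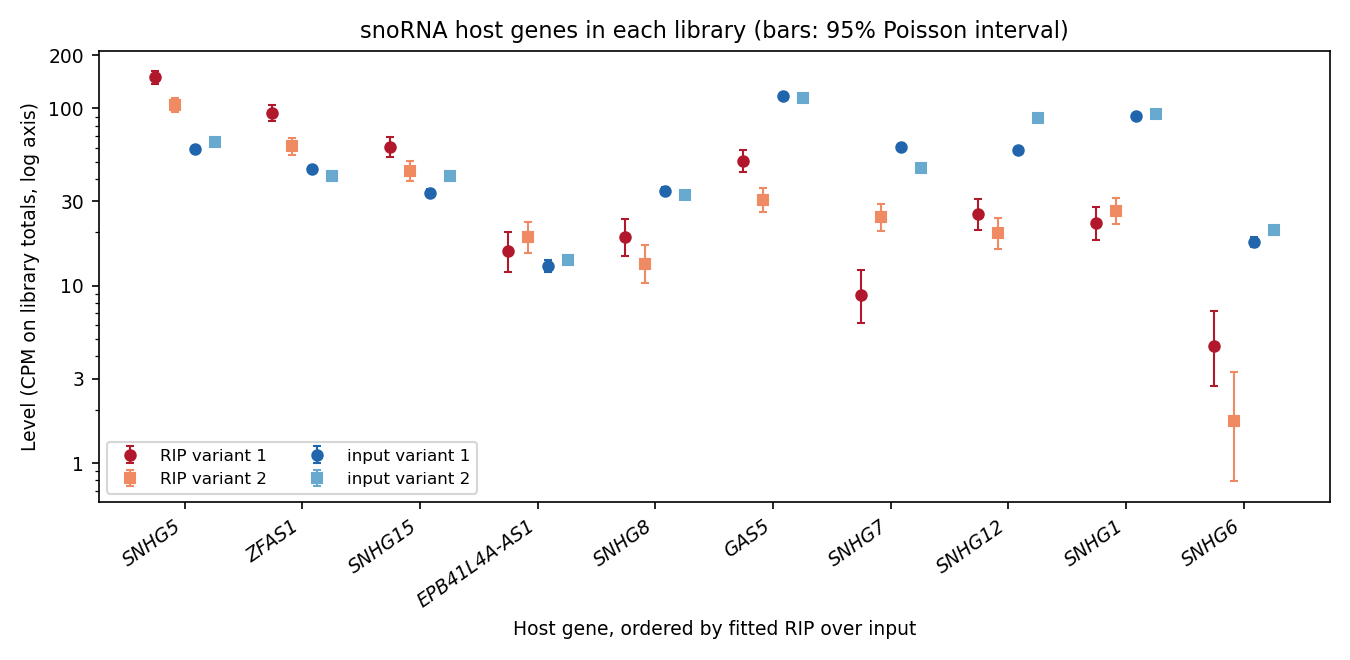
Level of each host gene (CPM on library totals, log axis) in the 4 libraries, with exact 95% Poisson intervals as bars. Genes are ordered from left to right by the fitted RIP over input, and the 6 from SNHG8 to SNHG6 have both RIP points below both input points.

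GAS5 (growth arrest specific 5), known to accumulate in growth-arrested cells, had 50.5 CPM (RIP variant 1) and 30.6 CPM (RIP variant 2), against 118 CPM (input variant 1) and 114 CPM (input variant 2). CPM here is the count relative to the total of the library. The exact 95% Poisson intervals of the RIP libraries, 43.7 to 58.0 and 26.0 to 35.7 CPM, did not overlap each other or the inputs. The log2 fold change was -2.69 (edgeR adjusted p = 0.00198), 1.54 below the median of the well-covered IDs. Beside IDs of a similar input level, GAS5 lay within the quartiles with both constructs, as described below. The Poisson intervals describe counting error and nothing else, because amplified reads do not stand for separate molecules.

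SNHG1, which hosts SNORD22 and SNORD25 to SNORD31, had 22.6 CPM (RIP variant 1) and 26.5 CPM (RIP variant 2), against 90.6 CPM (input variant 1) and 93.1 CPM (input variant 2). The RIP intervals (18.1 to 27.8 and 22.2 to 31.3 CPM) overlapped, and both lay far under the inputs. The interval of the RIP ratio, 0.641 to 1.12, included 1, so counting error alone could separate the RIP values. Its log2 fold change of -3.08 had the smallest adjusted p of the 10 hosts (edgeR adjusted p = 0.000906). SNHG12, whose introns hold SNORD99 and 3 box H/ACA snoRNAs, had 25.5 CPM (RIP variant 1) and 19.8 CPM (RIP variant 2), against 58.2 CPM (input variant 1) and 88.3 CPM (input variant 2). Its inputs differed more than those of any other host, and both were above both RIP values (log2 fold change -2.87, edgeR adjusted p = 0.002).

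SNHG6, the host of SNORD87, had the lowest fitted ratio of the 10, from few RIP reads. It had 18 counts (4.59 CPM, interval 2.72 to 7.25) in RIP variant 1 and 9 counts (1.73 CPM, interval 0.790 to 3.28) in RIP variant 2, against 17.6 CPM (input variant 1) and 20.5 CPM (input variant 2). Both intervals lay below the inputs. They overlapped each other, although the interval of the RIP ratio, 1.13 to 6.72, did not include 1. The log2 fold change was -3.78 (edgeR adjusted p = 0.00778), and it was -4.67 without RIP variant 1 and -3.20 without RIP variant 2.

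SNHG7, the host of SNORA17A and SNORA17B, was the host whose RIP libraries were furthest apart. It had 8.84 CPM in RIP variant 1 (interval 6.15 to 12.3) and 24.3 CPM in RIP variant 2 (20.3 to 28.9), against 60.4 CPM (input variant 1) and 46.3 CPM (input variant 2). Both RIP values were below both inputs, and the log2 fold change was -2.85 (edgeR adjusted p = 0.00636). Without RIP variant 2 it was -3.73, and without RIP variant 1 it was -2.34.

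SNHG8, the host of SNORA24, had 18.9 CPM (RIP variant 1) and 13.3 CPM (RIP variant 2), against 34.4 CPM (input variant 1) and 32.5 CPM (input variant 2). This was the smallest of the 6 decreases, with a log2 fold change of -2.23 (edgeR adjusted p = 0.00623). It was the only one of the 6 to lose its call under any alternative run. On library totals it was -1.05 (adjusted p = 0.0968), and -1.14 (adjusted p = 0.0533) when the well-covered IDs were fitted alone, where 24.1% of them were called lower and 21.8% higher.

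The other 4 hosts had higher CPM in both RIP libraries than in either input, before TMM scaling. SNHG5, the host of SNORD50A and SNORD50B, had 149.6 CPM (RIP variant 1) and 104.5 CPM (RIP variant 2), against 58.8 CPM (input variant 1) and 64.3 CPM (input variant 2). The RIP intervals (138 to 162 and 95.9 to 114 CPM) lay above both inputs. With TMM scaling the log2 fold change was -0.13 (edgeR adjusted p = 0.703), which is 1.02 above the median of the well-covered IDs. On library totals SNHG5 was called higher, with a log2 fold change of 1.04 (edgeR adjusted p = 0.0187), as it was at 0.96 (adjusted p = 0.0285) when the well-covered IDs were fitted alone. Its direction is thus set by scaling, and its place above the median is not.

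ZFAS1, named as the antisense transcript beside ZNFX1 and the host of SNORD12, SNORD12B and SNORD12C, had 94.4 CPM (RIP variant 1) and 61.2 CPM (RIP variant 2), against 45.4 CPM (input variant 1) and 41.4 CPM (input variant 2). Both RIP values were above both inputs. With TMM scaling the log2 fold change was -0.34 (edgeR adjusted p = 0.393), and on library totals it was 0.84 (adjusted p = 0.0653).

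SNHG15, the host of SNORA9, had 60.7 CPM (RIP variant 1) and 44.4 CPM (RIP variant 2), against 33.4 CPM (input variant 1) and 41.6 CPM (input variant 2). The interval of RIP variant 2, 38.9 to 50.5 CPM, included the input of the same construct, while RIP variant 1 was above both inputs. The log2 fold change was -0.69 with TMM scaling (edgeR adjusted p = 0.119) and 0.49 on library totals (adjusted p = 0.259).

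EPB41L4A-AS1, the host of SNORA13, had 15.7 CPM (RIP variant 1) and 18.8 CPM (RIP variant 2), against 12.9 CPM (input variant 1) and 14.1 CPM (input variant 2). The intervals of RIP variant 1 (12.0 to 20.1 CPM) and of its input (11.9 to 13.9 CPM) overlapped, while that of RIP variant 2 (15.3 to 22.9 CPM) lay above its input (13.1 to 15.0 CPM). The CPM ratio of RIP over input was 1.22 (0.930 to 1.59) with variant 1 and 1.34 (1.07 to 1.65) with variant 2. The log2 fold change was -0.81 with TMM scaling (edgeR adjusted p = 0.241) and 0.36 on library totals (adjusted p = 0.618).

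**Figure D2:**
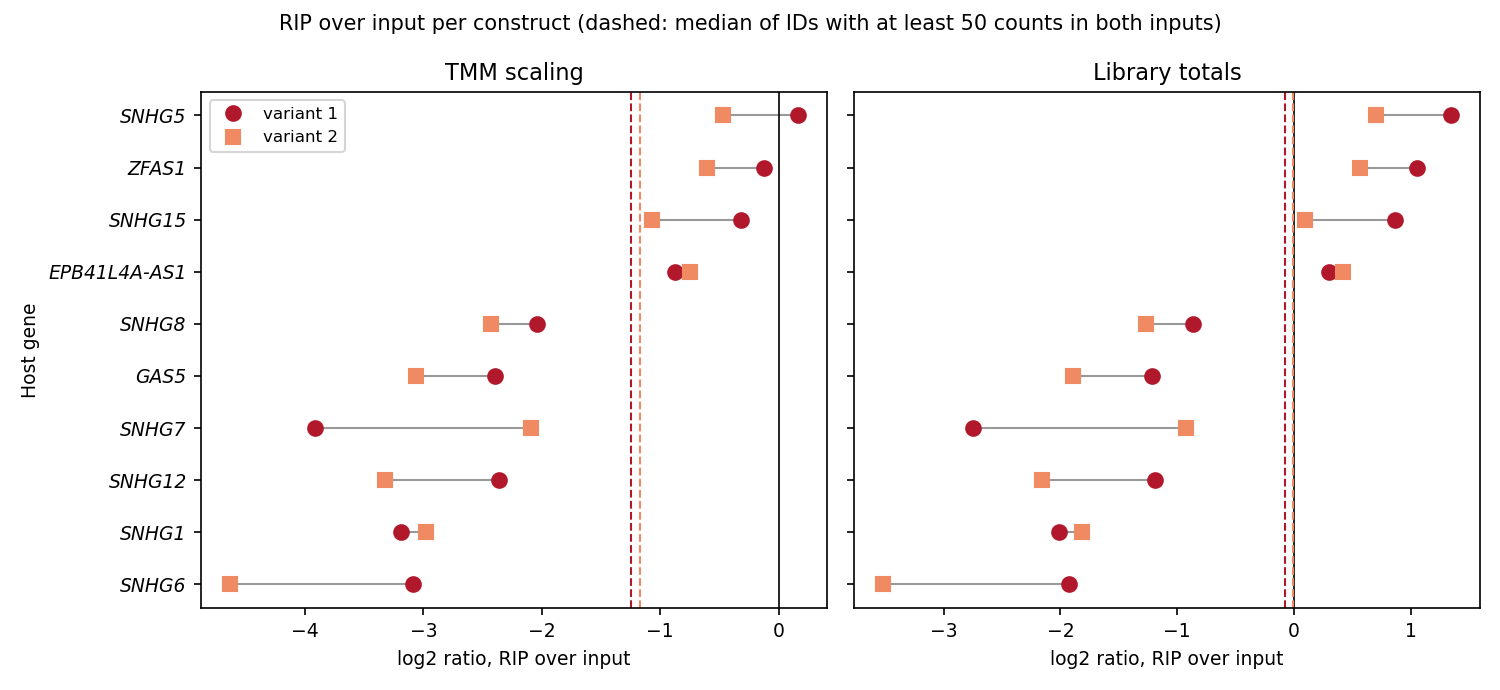
log2 ratio of RIP over input for each host gene, with TMM scaling on the left and on library totals on the right. Circles are variant 1, squares variant 2, and dashed lines the medians of the 15436 well-covered IDs. The upper 4 genes lie right of the dashed lines and the lower 6 left of them in both panels.

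Each construct was also compared with its own input, as log2 ratios with a prior count of 2 and no test, since each side is 1 library. With variant 1, 6 hosts passed 2-fold downwards and 0 upwards, and with variant 2 it was 7 and 0. On library totals 5 passed downwards with each construct, since SNHG8 with variant 1 (-0.87), SNHG7 with variant 2 (-0.92) and SNHG15 with variant 2 (0.10) no longer did, and SNHG5 and ZFAS1 passed upwards with variant 1. With DESeq2 size factors SNHG15 was at -0.74 with variant 2, leaving 6. Among the well-covered IDs, 54.7% were at least 2-fold lower with variant 1 and 53.5% with variant 2, while 16.1% and 15.6% passed 2-fold upwards. These IDs include many with far fewer input counts than the hosts, and the share depends on the input level, as the bands of level described below show. Over all tested IDs, 23.1% (variant 1) and 21.2% (variant 2) passed 2-fold downwards and 63.1% and 64.4% upwards. SNHG15 passed 2-fold with variant 2 and not with variant 1, at -0.32 with variant 1 and -1.07 with variant 2 on the log2 scale.

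The ratios of the hosts differed from each other, with a smaller SD than that of the well-covered IDs. The log2 ratios of the hosts ran from -3.92 (SNHG7) to 0.17 (SNHG5) with variant 1. With variant 2 they ran from -4.64 (SNHG6) to -0.47 (SNHG5). The SD over the 10 hosts was 1.43 and 1.39, against 2.21 and 2.00 over the well-covered IDs. Placed among those IDs, the 6 hosts called lower ranked between percentiles 9.6 and 34.7 of the ratio with variant 1 and between 2.6 and 31.2 with variant 2. The other 4 ranked between percentiles 56.8 and 74.2 with variant 1 and between 52.0 and 63.5 with variant 2. Scaling moves all IDs alike, so these ranks hardly depend on it. Over the 10 hosts the ratios of the 2 constructs correlated at 0.79 (Pearson) and 0.72 (Spearman). This is a description, and the ratios share similar input levels.

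Counts of one host set against another within a library need no scaling between libraries, and gene length cancels when the same pair is read in RIP and in input. SNHG5 had 2.96 and 3.41 times the counts of GAS5 in RIP variants 1 and 2, against 0.50 and 0.564 times in the inputs, a shift of 5.92-fold and 6.05-fold. SNHG5 over SNHG1 shifted by 10.2-fold and 5.71-fold, and ZFAS1 over SNHG1 by 8.35-fold and 5.20-fold. As a share of all counts of the 10 hosts, the 6 hosts called lower made up 29.0% and 33.7% in RIP variants 1 and 2, and 71.6% and 71.0% in the inputs. The pairs and this split were made on the hosts' calls, which fixes the direction of these ratios and shares, and they add no support. The hosts summed to 451 and 345 CPM in the RIP libraries, against 529 and 556 CPM in the inputs.

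RIP over input fell with the input level across all genes, and the hosts were read beside IDs of a similar level. To keep the ratio apart from its own denominator, the level was taken from the input of the other construct. For IDs at 50 to 100 CPM the median log2 ratio was -2.10 with variant 1 and -2.08 with variant 2, and for IDs at 10 to 20 CPM it was -0.63 with each. GAS5 lay within the quartiles of its band with both constructs, at percentiles 60.8 (variant 1) and 32.7 (variant 2), and so did EPB41L4A-AS1, at 43.8 and 46.7. SNHG5 was at percentile 98.7 of 2069 IDs with variant 1 and at 95.6 of 2038 IDs with variant 2. ZFAS1 was also above the upper quartile with both constructs, at percentiles 84.6 and 76.1.

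Below the lower quartile with both constructs were SNHG1, at percentiles 17.4 and 17.2, and SNHG6, at percentiles 12.4 (20 to 50 CPM) and 1.8 (10 to 20 CPM) of its bands. SNHG7 was at percentile 6.1 of IDs at 20 to 50 CPM with variant 1 and at 49.4 of IDs at 50 to 100 CPM with variant 2. The median log2 ratios of those bands were -1.33 and -2.08, so part of the gap between the SNHG7 percentiles comes from the change of band. SNHG12 was at percentiles 39.5 and 9.9. SNHG8 was at percentiles 30.3 and 18.1, and SNHG15 at 80.1 and 61.0. The low RIP over input of GAS5 was thus near the middle for genes of its level, while SNHG5 stood near the top of its band. The widths of the bands and the use of percentiles were chosen with the values known, and no test was made of them.

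**Figure D3:**
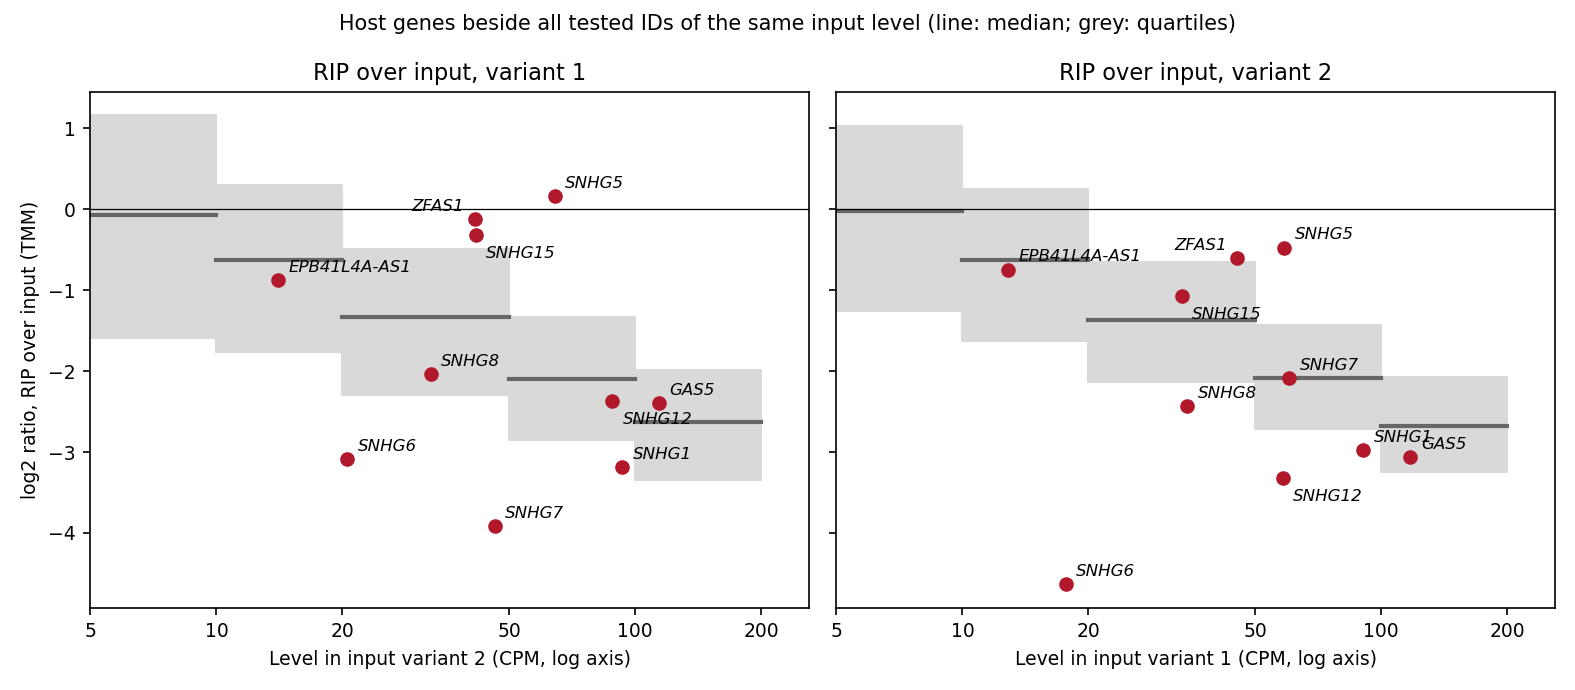
log2 ratio of RIP over input (TMM scaling) against the level in the input of the other construct (CPM, log axis), for variant 1 on the left and variant 2 on the right. Red points are the 10 hosts, and for all tested IDs in a band of input level the line is the median and the grey area spans the quartiles. SNHG5 lies above the grey area and SNHG6 below it in both panels.

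The variants were compared with each other, without a test. Between RIP variant 1 and RIP variant 2, 1 host (SNHG6) passed 2-fold upwards and 1 (SNHG7) downwards, as did 12.7% and 18.0% of the well-covered IDs. Between the inputs, 0 hosts were 2-fold apart, while 3.76% of the well-covered IDs passed 2-fold upwards and 3.41% downwards. The hosts lay closer together between the inputs than between the RIP libraries, which were also shallower.

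SNHG7 was lower in RIP variant 1 than in RIP variant 2, with a CPM ratio of 0.364 (95% interval from the counts 0.244 to 0.536), while its input was higher in variant 1 (ratio 1.31, 1.24 to 1.38). RIP over input was therefore 3.55 times lower with variant 1, a difference of -1.83 on the log2 scale. SNHG6 went the other way, with a RIP ratio of 2.66 whose interval, 1.13 to 6.72, is wide because it rests on 18 and 9 counts, and its input ratio was 0.858. GAS5 (RIP ratio 1.65), ZFAS1 (1.54), SNHG5 (1.43) and SNHG15 (1.37) were higher in RIP variant 1 with intervals above 1. Among the well-covered IDs their TMM-scaled RIP ratios ranked at percentiles 81.0, 78.3, 74.7 and 71.9. The share of those IDs with such an interval was not computed. For SNHG1, SNHG8, SNHG12 and EPB41L4A-AS1 the intervals of the RIP ratio included 1.

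Over the 10 hosts, the median of RIP variant 1 over RIP variant 2 was 0.48 on the log2 scale, and the range was -1.42 to 1.36. For the well-covered IDs the median was -0.03 and the quartiles were -0.69 and 0.54, so the host median lay within these quartiles. Between the inputs the median of the hosts was -0.06 and their range -0.58 to 0.41. The lowest input value belonged to SNHG12, with 58.2 CPM for variant 1 and 88.3 for variant 2 (ratio 0.659, interval 0.630 to 0.690). Taking both fractions together, the ratio of RIP over input passed 2-fold in favour of variant 1 for SNHG6 and of variant 2 for SNHG7, and for 15.4% and 20.8% of the well-covered IDs. With 1 library per variant and fraction, differences between preparations and between variants cannot be told apart.

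**Figure D4:**
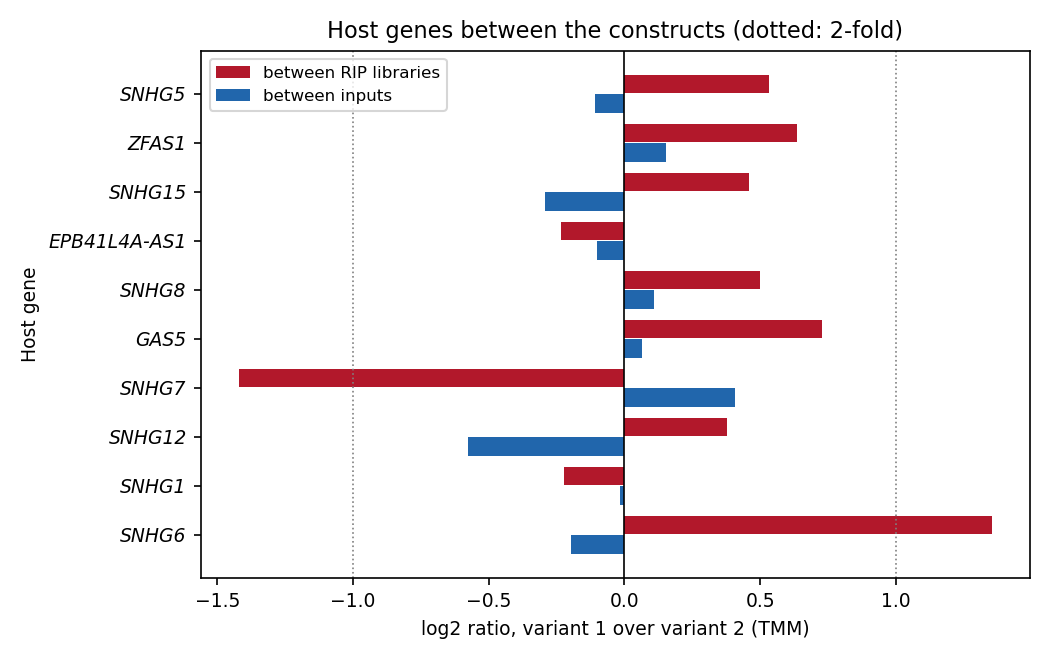
log2 ratio of variant 1 over variant 2 (TMM scaling) for each host gene, between the RIP libraries (red) and between the inputs (blue), with dotted lines at 2-fold. SNHG7 and SNHG6 pass the dotted lines in RIP, in opposite directions, and no host passes them in the inputs.

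Hosts with either family of snoRNA alone were found on both sides of the test. Of the 4 hosts that hold box C/D snoRNAs alone, 2 were called lower (SNHG1, SNHG6) and 2 were not (SNHG5, ZFAS1), and of the 4 with box H/ACA snoRNAs alone, 2 were called lower (SNHG7, SNHG8) and 2 were not (SNHG15, EPB41L4A-AS1). Both hosts with snoRNAs of each family, GAS5 and SNHG12, were called lower. The 3 hosts with 4 or more snoRNAs (GAS5, SNHG1 and SNHG12) were called lower, and so were 3 of the 7 with 3 or fewer (SNHG6, SNHG7 and SNHG8). This division by number was made with the calls known. GAS5 and SNHG1 also had the highest input CPM of the hosts, and RIP over input fell with input level. Beside IDs of a similar level, GAS5 lay within the quartiles with both constructs, SNHG12 with variant 1 only, and SNHG1 below them with both. Whether the number of snoRNAs matters apart from input level was not tested. Of the 4 hosts with a C and a run of at least 4 pyrimidines, SNHG7 and SNHG12 were called lower and SNHG5 and ZFAS1 were not. Of the 4 with a printed start and no such run, GAS5, SNHG1 and SNHG8 were called lower and EPB41L4A-AS1 was not. This split holds for the printed starts alone, since a start used in these cells may lie elsewhere and the SNHG1 run was 3 bases long. All these divisions are counts over 7 or fewer genes, given without a test, and 42.2% of the well-covered IDs were called lower.

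The counts are per host gene and do not tell spliced from unspliced RNA, nor exonic RNA from a snoRNA within the same gene. Of the 40 values of the hosts, 23 held a fraction of a read, so reads were shared with other IDs or positions. In RefSeq several hosts overlap other genes (GAS5 with GAS5-AS1 and ZBTB37, SNHG1 with LOC124900306, SNHG6 with MCMDC2, SNHG7 with DIPK1B and LOC124900276, SNHG12 with TRNAU1AP, EPB41L4A-AS1 with EPB41L4A). Counting by strand is not described in the sources used here, so reads from an overlapping gene on the other strand cannot be told apart. No host shared its 4 values with another ID. Nearest to the median profile of the 10 hosts over the 4 libraries were ENSG00000122483 and ENSG00000172943, at 0.10 and 0.12 log2 units, and the files do not pair these IDs with names.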

How the data were processed

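RNA from 2 RIP and 2 input libraries of transfected MiaPaCa cells was quantified per Ensembl gene ID. The deposited values are estimated counts, some holding a fraction of a read. Per the submitters' processing notes, the tools were HISAT2 2.1.0 and featureCounts of Subread 2.0.0 with GRCh38.p13. The annotation, the use of strand and the handling of reads with several matches are not described in the sources used here. Counts were rounded to whole numbers for edgeR 4.0.16 (R 4.3.3) and filtered by fraction (minimum count 10), and scaled by TMM. The fit has 2 residual degrees of freedom. Each RIP library is paired with the input of its own cells, per the labels, and a fit with the construct as replicate block (1 residual degree of freedom) served as the paired alternative. Across 22939 IDs that reached 50 counts in RIP or input of both constructs, the differences between constructs in RIP and in input correlated at -0.05. Alternatives were other scalings (DESeq2 1.42.0 size factors, library totals), other filters, the DESeq2 Wald test, limma-voom (limma 3.58.1), halved counts, other prior counts and leaving out each library. The fit was also run on simulated counts with few changed IDs, all raised in RIP. In these data many IDs were called in both directions, so that run does not show the error rate here.

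The hosts, their symbols and the lists were chosen with earlier results of these data known. All 10 hosts are named, beside the 2 IDs nearest to their median profile. The reference gene table (59792 genes, matched to the hosts by symbol) pairs 0 genes with an Ensembl ID. Lists of other hosts, snoRNP proteins and decay factors, and the level of SRP9, were therefore not computed. Intervals of ratios are exact (Clopper-Pearson on the 2 counts).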

Additional observations from a re-analysis of the deposited data

Results flagged for a closer look

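SNHG5 had RIP over input of opposite sign with the 2 constructs, at 0.17 with variant 1 and -0.47 with variant 2 on the log2 scale with TMM scaling, a difference of 0.64. With 1 RIP and 1 input library behind each value this difference was not tested, and both ratios are under 2-fold. On library totals both were positive, at 1.34 and 0.70.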

How the results depend on the processing

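The 6 hosts called lower numbered 5 to 6 over the alternatives that kept all 4 libraries. GAS5, SNHG1, SNHG6, SNHG7 and SNHG12 kept their call under all of these. Halved counts leave the ratios nearly as they were and add no new noise, so that setting tests little. With 1 library left out, its fraction holds 1 library and the error rests on the other fraction. The log2 fold changes of these hosts then ran from -4.67 (SNHG6) to -2.34 (SNHG7). SNHG8 lost its call on library totals (-1.05) and when well-covered IDs were fitted alone (-1.14), where SNHG5 turned to 1.04 and 0.96 and was the 1 host called higher. On those 2 settings 3251 and 3727 IDs of that depth were called lower (6508 with TMM on all IDs) and 3063 and 3359 higher (1282). The higher calls were 655 with the construct as replicate block and 2122 by the DESeq2 Wald test, and 293 to 1071 when 1 library was left out. The block changed no host's call. On library totals the ratios of single constructs turned positive for ZFAS1 (1.05 with variant 1 and 0.56 with variant 2), SNHG15 (0.86 and 0.10) and EPB41L4A-AS1 (0.29 and 0.42), and for SNHG5 with variant 2 (0.70). There 2 hosts (SNHG5, ZFAS1) passed 2-fold upwards with variant 1, and 5 passed downwards with each construct, against 6 with variant 1 and 7 with variant 2 under TMM. These settings differ in scaling or in the IDs tested, and for the rest the cause was not tested. The depth of the RIP libraries limits SNHG6 most, with 9 counts in RIP variant 2.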
